A study of Mus musculus with 2 samples.

Results

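Bile acids are the end product of cholesterol breakdown in the liver. They are made in a classic route, which opens with hydroxylation of cholesterol itself, or in an acidic route, which opens with oxidation of the side chain. Both routes converge on shared enzymes that remodel the sterol ring and shorten the side chain. The hormone FGF15, released by the ileum when bile acids are reabsorbed, signals to hepatocytes through the receptor FGFR4 and its co-receptor beta-Klotho and lowers the output of the classic route. The 10 genes described here cover these steps. Cyp7a1 and Cyp8b1 belong to the classic route, Cyp27a1 and Cyp7b1 to the acidic route, Hsd3b7, Akr1d1 and Akr1c6 act on the ring, Amacr acts on the side chain, and Fgfr4 and Klb encode the receptor and its co-receptor. They were chosen by symbol, from 18193 genes that had a probe set naming them alone. All 10 had at least 1 such probe set, 20 in all.

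RNA came from livers of male C57Bl/6J mice, a wild-type inbred strain, that entered the study at 9 weeks of age and ate a diet poor in n-3 polyunsaturated fatty acids, with sunflower oil as its fat and an n-6 to n-3 ratio of 127.2. The diets ran for 112 days. For the final 10 days the DEF/FOS mice kept this diet and took fructooligosaccharides, a fermentable fibre, with their water at 0.25 g per day, while the DEF/CT mice were switched to a control diet with soybean oil and a ratio of 6.9. Each group is listed with 8 mice, and equal amounts of RNA were pooled onto 1 array, from 4 to 8 mice per the extraction notes. The pools therefore differed in fibre and in dietary oil, which cannot be told apart, and the spread between animals cannot be measured. No comparison below has a test or a p-value. Mice kept throughout on either diet alone are not analysed here, so every difference is between the treated pools and not against an untreated control.

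The values are MAS5 signals, linear intensities that the authors scaled to the same trimmed mean in both arrays. A difference is the log2 signal of DEF/FOS minus that of DEF/CT, centred on the median probe set. A signal floor of 19.4, the median of all probe sets, was set here and is not a detection call. A gene was represented by its brightest probe set, and 11163 genes lay above the floor. Of the 20 probe sets of the 10 genes, 16 lay above it. Every gene had at least 1 of these.

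The liver was recognisable in both pools. Alb, the albumin gene, had signals of 11023 in DEF/FOS and 11303 in DEF/CT, and the hepatocyte markers as a list had a median difference of -0.03 over 10 genes. Of these 4 were higher in DEF/FOS and 6 lower. Fah was 1.39-fold lower at 3649 against 5130 and Ass1 1.25-fold lower, while Hnf4a was 1.19-fold higher. Apob was 1.17-fold higher by its brighter probe set and lower by the other. Skeletal muscle genes set the pools apart. All 13 of the listed muscle genes were at least 2-fold lower in DEF/FOS, with a summed signal of 171 against 2893, and 9 of them lay below the floor in that pool and 0 in the other. Their part in the differences below was not tested. In bulk RNA, fewer cells of a type and less RNA per cell cannot be told apart.

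Expression of the bile acid genes was unequal between the pools rather than shifted as a block. Cyp8b1 and Cyp7b1 were lower in DEF/FOS by 1.88-fold and 1.72-fold, Cyp7a1 was higher by 1.49-fold, and the other 7 genes differed by at most 1.31-fold. In all, 8 of the 10 were lower in DEF/FOS, where 50.0% of all genes above the floor were lower. The median difference of the 10 was -0.25, against -0.0004 for all genes above the floor.

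At a 1.5-fold difference, 2 of the 10 genes were lower, where 7.82% of all genes above the floor were that much lower, and 0 of the 10 were higher, where 6.75% were. None reached 2-fold, a size at which 1.74% of all genes were higher and 2.19% lower. The brightest probe sets of all 10 genes lay above the 75th percentile of signal, 84.3, where differences were smaller. Among the 6751 genes above that percentile, 2.77% were at least 1.5-fold lower and 4.01% at least 1.5-fold higher. The SD between different probe sets of a gene served as a technical yardstick. That SD was 0.21 on the log2 scale for genes with a signal above 324 and 0.29 for those between 122 and 324. With each gene placed by its brightest probe set, 3 of the 10 differed by more than 2 SD, namely Cyp7a1, Cyp8b1 and Cyp7b1. Hsd3b7, Akr1d1 and Amacr lay between 1 and 2 SD. The other 4, Cyp27a1, Akr1c6, Fgfr4 and Klb, lay within 1 SD. The SD itself was computed with genes grouped by the mean signal over their probe sets. By that mean Cyp7a1 falls between 122 and 324, where its difference of 0.58 does not exceed 2 SD. Its place beyond 2 SD thus depends on the grouping. Variation among mice and among arrays is not part of this SD. The differences of all genes above the 75th percentile had an SD of 0.35, wider than this yardstick. The share of all genes beyond 2 SD was not counted, so these counts only order the 10 genes.

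**Figure D1:**
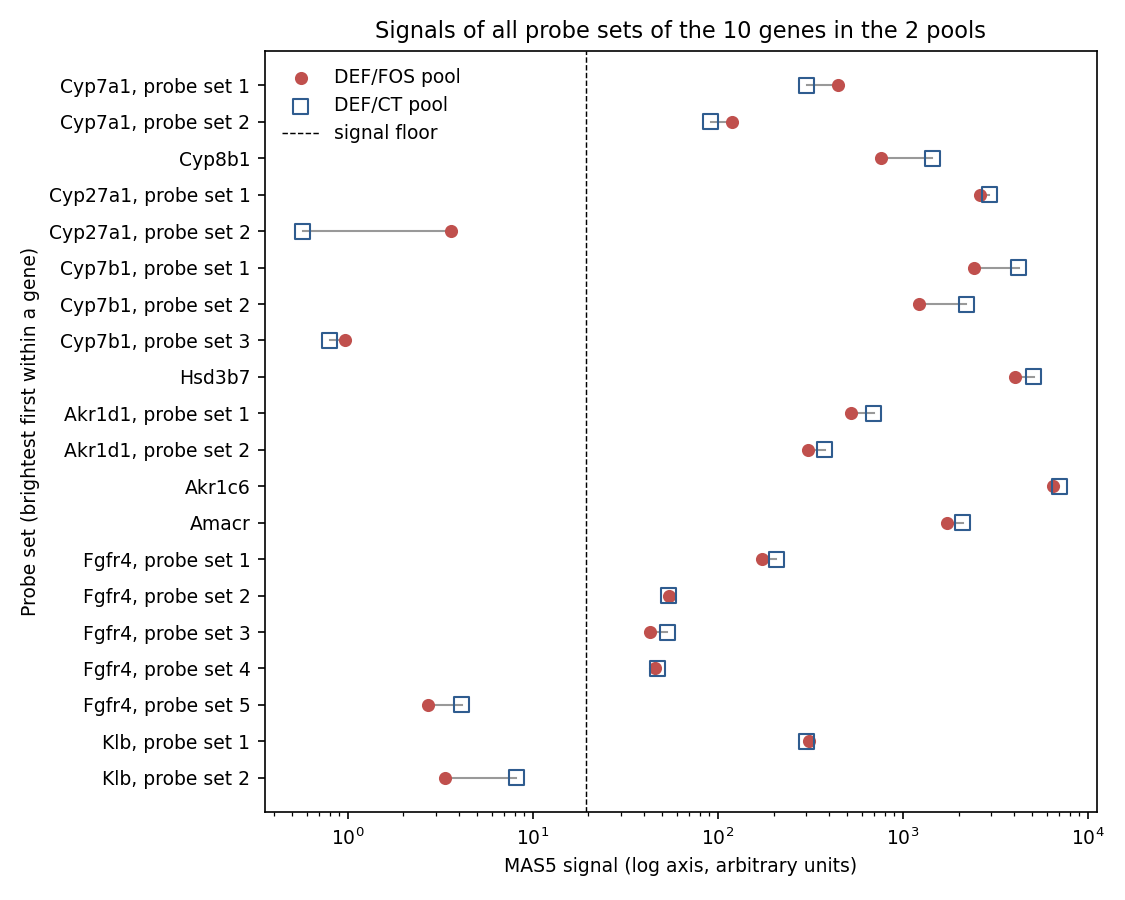
MAS5 signal on a log axis of each of the 20 probe sets of the 10 genes, with filled circles for DEF/FOS, open squares for DEF/CT and a dashed line at the signal floor of 19.4. Cyp8b1 and Cyp7b1 show the widest gaps above the floor with DEF/CT to the right, Cyp7a1 has DEF/FOS to the right in both of its probe sets, and 4 probe sets lie left of the floor.

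Within the classic route the initiating enzyme and the branch enzyme differed in opposite directions. Cyp7a1 encodes cholesterol 7-alpha-hydroxylase, the rate-limiting enzyme of the route. Its brighter probe set had a signal of 449 in DEF/FOS and 303 in DEF/CT, a difference of 0.58. Its second probe set read 119 and 91.4, a difference of 0.39, so both were higher in DEF/FOS. For signals between 49.0 and 122 the SD between probe sets was 0.41, so this second difference lies within 1 SD. Of all genes above the floor, 6.89% had a larger positive difference than Cyp7a1, and of the 2791 genes with a signal above 324 it was 2.97%.

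Cyp8b1 encodes sterol 12-alpha-hydroxylase, the enzyme that directs intermediates to cholic acid and away from the muricholic acids of mice. Its only probe set had a signal of 762 in DEF/FOS and 1446 in DEF/CT, a difference of -0.91. DEF/CT was the higher of the pools. Of all genes above the floor, 2.97% had a lower difference, and of those with a signal above 324 it was 0.502%. The differences of Cyp7a1 and Cyp8b1 were 1.49 apart on the log2 scale with the brighter Cyp7a1 probe set and 1.30 apart with the other, which corresponds to an unequal change of 2.81-fold or 2.47-fold between these genes. This contrast within the arrays does not move with the scaling of either array.

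The start of Cyp8b1 is shown because nuclear receptor elements near it are textbook entry points for control of the gene, and Akr1c6 is shown beside it as a gene of the same pathway with a difference close to 0. Both sequences are from RefSeq, build GRCm38.p6, and run 5′ to 3′ on the gene's strand from 250 bases before the start site to 50 after it. Capitals mark CAAAGTCC (a core of the HNF4A site), CAAGGNCA (a site of NR5A2, also known as LRH-1) and TATAA, each searched on both strands. Cyp8b1 lies on the minus strand at chr9:121916256-121916555 and Akr1c6 on the plus strand at chr13:4434093-4434392.
Cyp8b1: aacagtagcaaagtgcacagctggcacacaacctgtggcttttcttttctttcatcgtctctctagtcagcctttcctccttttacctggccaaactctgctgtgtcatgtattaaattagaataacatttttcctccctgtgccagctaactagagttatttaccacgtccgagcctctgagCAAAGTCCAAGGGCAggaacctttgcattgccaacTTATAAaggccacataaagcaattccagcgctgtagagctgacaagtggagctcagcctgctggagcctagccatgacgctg
Akr1c6: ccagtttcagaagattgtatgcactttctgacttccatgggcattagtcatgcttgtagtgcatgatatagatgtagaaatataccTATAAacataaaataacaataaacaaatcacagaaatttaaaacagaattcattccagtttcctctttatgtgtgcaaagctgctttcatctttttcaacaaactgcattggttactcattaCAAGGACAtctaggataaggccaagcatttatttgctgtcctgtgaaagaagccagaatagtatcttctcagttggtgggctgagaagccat

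In Cyp8b1 the CAAAGTCC match began 67 bases before the start site and the CAAGGNCA match 60 bases before it, so the matches share 1 base. A TATAA match began 31 bases before the start site, and it overlaps a match of the same letters on the other strand. In Akr1c6 the CAAGGNCA match began 42 bases before the start site and the TATAA match 164 bases before it. The RefSeq gene of Akr1c6 begins at 4434311, upstream of the start site of this window, so both distances are shorter from the gene's first base. Of 32851 promoter windows of the same length, 6.71% held CAAGGNCA, 1.42% held CAAAGTCC and 24.9% held TATAA. Among 7 of the 10 genes with a window in the table, CAAGGNCA was found in Cyp8b1 and Akr1c6 and CAAAGTCC in Cyp8b1. Windows of Cyp7a1, Cyp7b1 and Amacr were not used here. A match is a description of the letters and not a measured site.

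The acidic route was also uneven. Cyp27a1, the mitochondrial sterol 27-hydroxylase that opens it, had a signal of 2607 in DEF/FOS and 2931 in DEF/CT, a difference of -0.15 that is within the SD between probe sets. Its second probe set lay below the floor in both pools, at 3.59 and 0.572, and carries no comparison.

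Cyp7b1, the oxysterol 7-alpha-hydroxylase, which acts after Cyp27a1 and is a male-biased gene of mouse liver, stood much further from 0. Its brightest probe set read 2422 in DEF/FOS and 4216 in DEF/CT, a difference of -0.78, and its second read 1228 and 2202, a difference of -0.83. These probe sets gave nearly the same ratio at different brightness, and both had DEF/CT higher. The third read 0.968 and 0.7996, far below the floor. Of genes with a signal above 324, 0.932% had a lower difference than Cyp7b1. The changes of Cyp27a1 and Cyp7b1 were unequal by 1.55-fold or 1.60-fold, depending on the probe set, and those of Cyp7a1 and Cyp7b1 by between 2.26-fold and 2.65-fold over 4 pairs of probe sets. Cyp7b1 and Cyp8b1, in contrast, differed from each other by no more than 1.09-fold in their change.

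Of the other sterol hydroxylases listed for the acidic route, Cyp39a1, which acts on 24-hydroxycholesterol, was 1.60-fold higher in DEF/FOS at 363 against 229. Cyp46a1, the sterol 24-hydroxylase known mainly from brain, had a difference of -0.14 at low signal, 38.5 and 42.8. Ch25h lay below the floor on average. The 4 genes of this list above the floor had a median of -0.14, and at 1.5-fold 1 was higher and 1 lower.

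**Figure D2:**
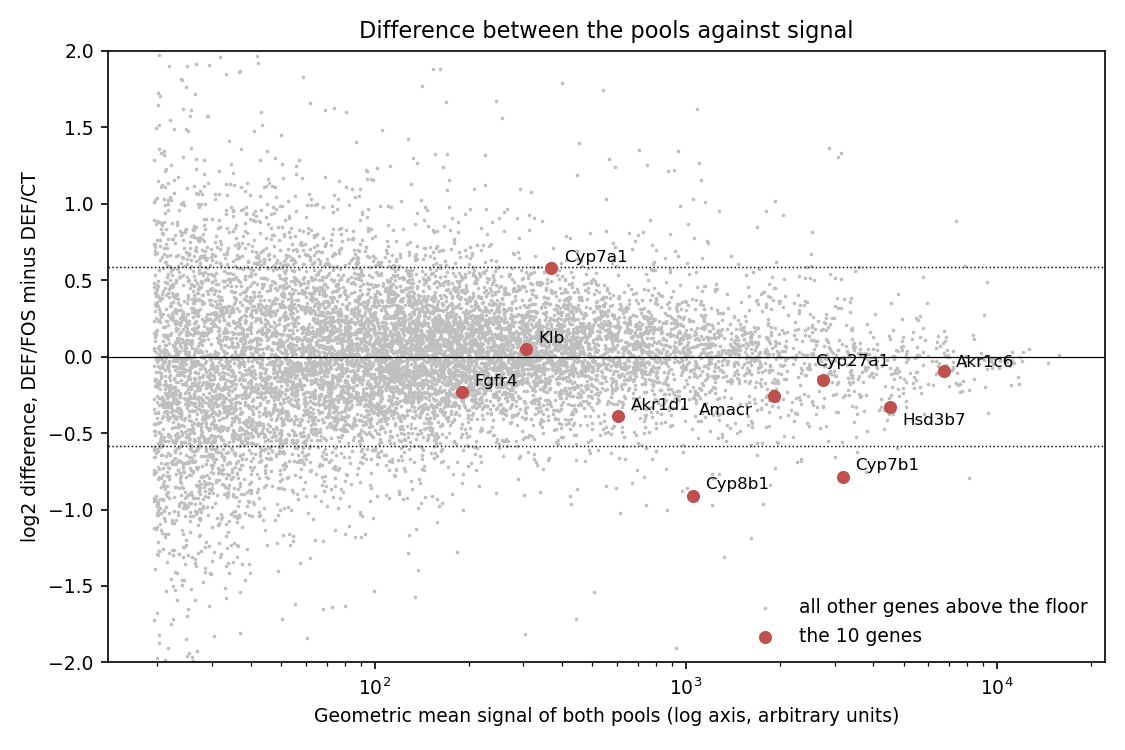
The log2 difference between the pools (DEF/FOS minus DEF/CT) against the geometric mean signal on a log axis, for 11163 genes above the floor in grey and the 10 bile acid and FGF genes in red, with dotted lines at 1.5-fold. Cyp8b1 and Cyp7b1 lie below the lower line at signals where few genes do, Cyp7a1 lies at the upper line, and 45 grey genes beyond a difference of 2 in either direction are outside the plotted range.

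The ring enzymes that both routes share were lower in DEF/FOS by small amounts. Hsd3b7, the C27 3-beta-hydroxysteroid dehydrogenase that oxidises the ring after 7-alpha-hydroxylation, read 4016 in DEF/FOS and 5089 in DEF/CT, a difference of -0.33. Akr1d1, the 5-beta-reductase that gives the ring its bent shape, read 525 and 695 in its brighter probe set and 308 and 377 in the other, differences of -0.39 and -0.28. Both probe sets of Akr1d1 and the only one of Hsd3b7 were thus lower in DEF/FOS, by 1.31-fold and 1.21-fold for Akr1d1 and 1.25-fold for Hsd3b7. Akr1c6, an aldo-keto reductase, differed by -0.10, at 6467 and 6986. The change of Cyp7a1 and that of Hsd3b7, the next enzyme in the route, were unequal by 1.88-fold or 1.65-fold.

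Of the 3 measured electron donors of the hydroxylases, none reached 1.5-fold. Fdx1, the ferredoxin that feeds mitochondrial P450 enzymes such as Cyp27a1, was 1.30-fold lower in DEF/FOS at 1846 against 2433. Cyb5r3, the cytochrome b5 reductase, was 1.25-fold lower, with 3 of its probe sets above the floor and all of them negative. Cyb5a, cytochrome b5 itself, read 6375 and 6637, a difference of -0.04 that is within the SD between probe sets and becomes 0.01 with no floor. Together with the ring enzymes above, all 6 genes of this list above the floor had negative differences, apart from Cyb5a with no floor. The median was -0.32, and 0 of the 6 were 1.5-fold lower. Por and Fdxr, the reductases of microsomal and mitochondrial P450 enzymes, had no probe set naming them alone.

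Amacr, the racemase that turns the side chain into the form that peroxisomes can shorten, read 1741 in DEF/FOS and 2105 in DEF/CT, a difference of -0.26. The genes listed with it for the side chain split. Acox2 and Scp2 differed by 0.11 and -0.01, and the 4 probe sets of Scp2 disagreed in sign, from -0.47 to 0.08. Hsd17b4, the peroxisomal bifunctional protein for branched chains, was 1.503-fold higher at 2956 against 1987, Acot8, a peroxisomal thioesterase, 1.58-fold higher at 257 against 164, and Acaa1b, a peroxisomal thiolase, 1.40-fold higher at 10939 against 7873. These 3 higher genes serve peroxisomal oxidation of fatty acids.

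The genes that finish bile acids did not share that direction. Slc27a5, the bile acid CoA ligase, read 4370 and 4771, and Baat, which joins bile acids to taurine or glycine, read 1110 and 1168, with differences of -0.11 and -0.06. The second probe set of Baat had a difference of 0.02. Cyp2c70, which makes the muricholic acids of mice, was 1.40-fold lower in DEF/FOS at 3202 against 4523. Over 14 genes of side chain shortening and conjugation, 6 were higher and 8 lower, and at 1.5-fold 2 were higher, Hsd17b4 just past it, and 0 lower. The median was -0.04.

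The receptor pair for FGF15 differed little. Fgfr4 had 5 probe sets. The brightest read 174 in DEF/FOS and 207 in DEF/CT, a difference of -0.23. The next 3 read 54.2 and 54.1, 42.8 and 53.2, and 45.6 and 47.1, with differences of 0.02, -0.30 and -0.03. The last, at 2.72 and 4.14, lay below the floor. Of the 4 above it, 3 were lower in DEF/FOS and 1 was 1.01-fold higher, so the size and the sign of the Fgfr4 difference depend on the probe set.

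Klb, which encodes beta-Klotho, read 310 in DEF/FOS and 302 in DEF/CT, a difference of 0.05, the smallest among the 10 genes. Its second probe set lay below the floor, at 3.34 and 8.15. The changes of Klb and Fgfr4 were unequal by between 1.02-fold and 1.27-fold over 4 pairs of probe sets. Of the other receptors, Fgfr2 was 1.502-fold lower at 162 against 245 and by less in its second probe set (-0.39). Fgfr3 was 1.17-fold lower and by more in its second probe set (-0.45). The decoy-like receptor Fgfrl1 was 1.15-fold lower and by more in its second probe set (-0.56). Of 6 receptor and co-receptor genes above the floor, 5 were lower in DEF/FOS and 1 reached 1.5-fold, with a median of -0.21.

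Among ligands, Fgf15 itself lay below the floor in both pools, at 10.4 and 11.8, and its supply from the intestine is not measured by liver RNA. Fgf21, a hormone made by the liver that also uses beta-Klotho, was 1.91-fold higher in DEF/FOS at 267 against 141, from 1 probe set. Fgf1 had 3 probe sets that disagreed in sign, from -0.63 to 0.11. These were the only 2 of 8 listed ligands above the floor.

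Downstream of the receptors there was no common direction. Of 15 adaptors and kinases above the floor, 8 were higher and 7 lower, with a median of 0.06. Gab1, a docking protein of receptor tyrosine kinases, was 1.54-fold lower in DEF/FOS at 99.8 against 155, and its 3 probe sets were all negative, from -0.62 to -0.41. Mapk8, the JNK1 kinase gene, had a difference of 0.39, but its 5 probe sets ran from -0.95 to 0.39. Stat3 had one of 0.27, with probe sets that ran from -0.84. Sos2 had one of -0.29.

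Feedback and early response genes of FGF signalling differed most at low signal. Spry4, a feedback inhibitor, was 2.10-fold lower in DEF/FOS at 29.9 against 63.5, with both probe sets above the floor negative, and Spry1 was 1.47-fold lower at 38.1 against 56.5. Etv5, a transcription factor induced by FGF receptors, was 1.75-fold higher at 51.0 against 29.4, and Fos 1.33-fold higher at 792 against 600. Over 12 genes the median was 0.19, and at 1.5-fold 1 gene was higher and 1 lower. With an offset of 32 added to the signals, 0 were higher at that size. With no floor the higher count was 4, and with the floor at the 75th percentile both counts were 0.

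**Figure D3:**
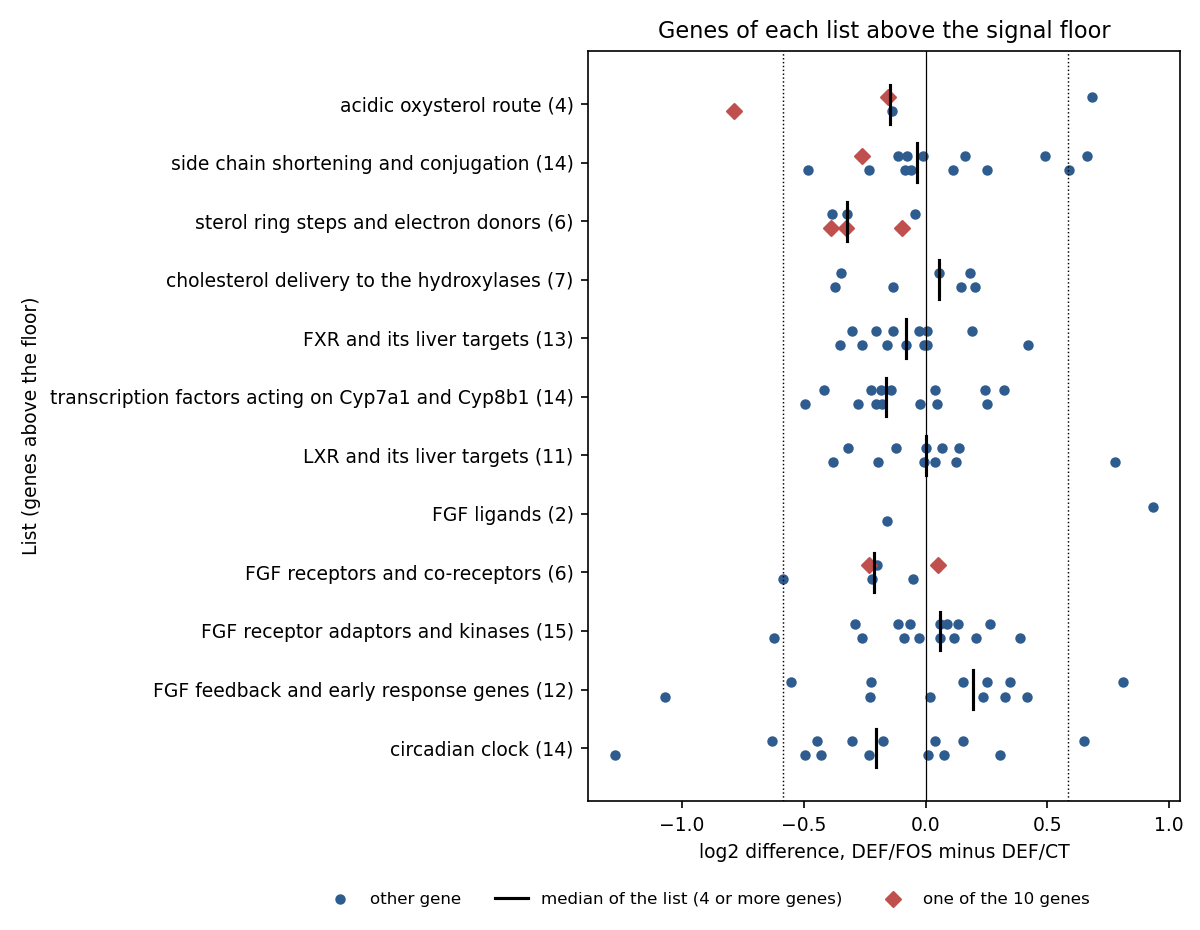
The log2 difference between the pools (DEF/FOS minus DEF/CT) of each gene above the floor, by list, with red diamonds for the 10 genes, blue points for other genes, a black bar at the median of lists with 4 or more genes and dotted lines at 1.5-fold. Medians lie between -0.32 and 0.19, and all 6 ring enzymes and electron donors lie left of 0, with Cyb5a at -0.04 and, with no floor, at 0.01.

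Regulators that act on Cyp7a1 and Cyp8b1 were mostly close to equal. The bile acid receptor FXR, gene Nr1h4, read 560 in DEF/FOS and 631 in DEF/CT, a difference of -0.16. Nr0b2, which encodes SHP, the repressor that FXR induces, read 523 and 633, a difference of -0.26, and so was 1.20-fold lower. Among FXR targets in transport, the export pump Abcb11 read 3186 and 3232, a difference of -0.01, the phospholipid exporter Abcb4 was 1.34-fold higher, and Slc10a1, the bile acid uptake carrier that FXR represses, was 1.28-fold lower. Pcx, pyruvate carboxylase, was 1.23-fold lower. None of the 13 genes above the floor in this list reached 1.5-fold, and the median was -0.08.

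Nr5a2, which encodes LRH-1, was 1.15-fold lower in DEF/FOS at 399 against 464, and its 3 probe sets above the floor were all negative, from -0.95 to -0.11. Hnf4a was 1.19-fold higher at 3233 against 2745, and its 4 probe sets were all positive, from 0.25 to 0.53. Ppara, the receptor gene for fatty acids, was 1.34-fold lower at 963 against 1300, with 3 negative probe sets. Nr2f2 was 1.41-fold lower with 5 negative probe sets, which ran from -1.08 to -0.04. Nr1i3, the CAR gene, was 1.25-fold higher, and the chromatin remodeller Smarca2 1.21-fold lower. Over 14 such factors 0 reached 1.5-fold, and the median was -0.16.

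Cyp7a1 is a target of the oxysterol receptor LXR in mice, and other LXR targets went both ways. Nr1h3, the LXR-alpha gene, was 1.30-fold lower in DEF/FOS at 244 against 321. Pltp, the phospholipid transfer protein, was 1.71-fold higher at 1380 against 814, Abcg1 1.25-fold lower, and Lpl 1.15-fold lower by its brighter probe set and higher by the other. Of 11 genes, 1 reached 1.5-fold, and the median was 0.00. Genes that deliver cholesterol to the hydroxylases were also near equal, with a median of 0.06 over 7 genes and 0 at 1.5-fold. In that list Npc1, which exports cholesterol from lysosomes, was 1.29-fold lower and the sterol carrier Stard5 1.27-fold lower, while Npc2 was 1.15-fold higher and Osbp 1.13-fold higher.

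Cyp7a1, Cyp8b1 and several of their regulators are known to cycle over the day, and the time of killing is not given in the sources used here. The clock output gene Dbp, whose product binds the Cyp7a1 promoter, was 2.42-fold lower in DEF/FOS at 118 against 288, with differences of -1.28 and -1.31 in its 2 probe sets. Nr1d1, the REV-ERB-alpha gene, was 1.55-fold lower at 82.0 against 128, Per3 1.41-fold lower at 22.0 against 31.3, and Cry1 1.57-fold higher at 120 against 77.0. Of 14 clock genes above the floor, 6 were higher and 8 lower. At 1.5-fold, 1 was higher and 2 were lower, and the median was -0.21. With the offset of 32 these counts were 0 and 1, and without probe sets marked as matching more than 1 transcript, as that of Cry1 is, 0 were higher. The lower count was 3 with the median over probe sets or with no floor. Their part in the differences of the bile acid genes was not tested.

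The direction of each of the 10 genes was the same under the 9 other ways of processing that were tried, where each could be computed. Much of this was fixed by how they work. Leaving out the centring, changing the floor or leaving out marked probe sets only moved the centre for these genes. Raising signals to the floor left all 10 unchanged. Cyp8b1 ran from -0.94 to -0.85 and Cyp7b1 from -0.81 to -0.73, so both stayed beyond 1.5-fold. Cyp7a1 ran from 0.49 to 0.64 and crossed the 1.5-fold line, which lies close to its reported value. Klb ran from 0.01 to 0.11 and Akr1c6 from -0.12 to -0.04.

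**Figure D4:**
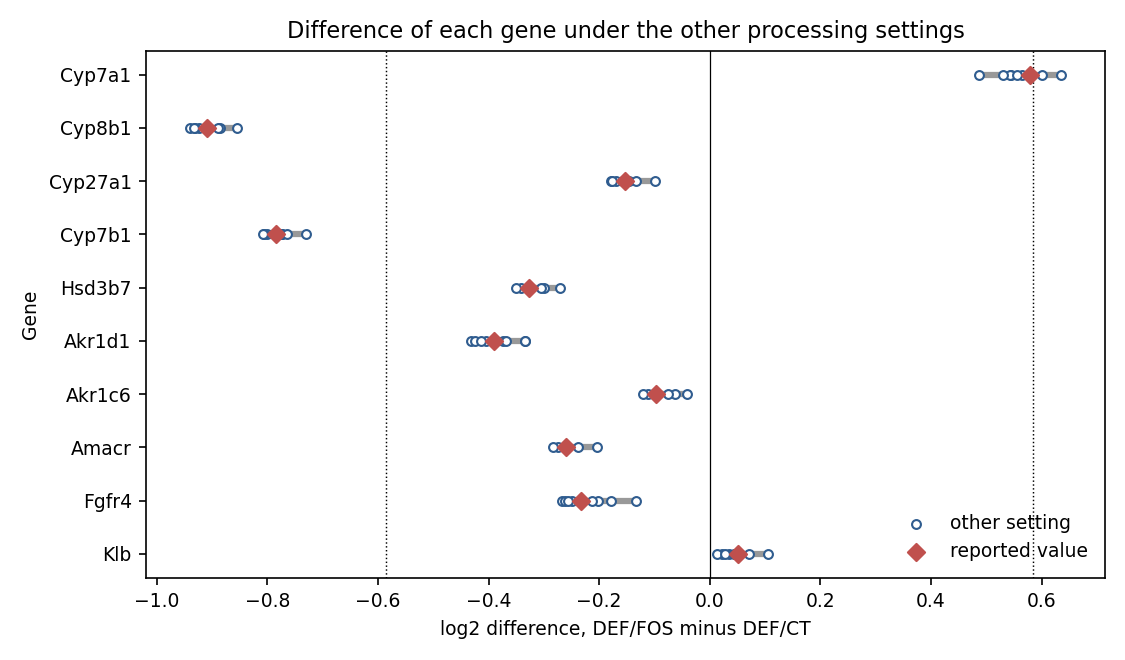
The log2 difference between the pools (DEF/FOS minus DEF/CT) of each of the 10 genes, with a red diamond for the reported value, open circles for the other processing settings, a grey bar for their range and dotted lines at 1.5-fold. No gene crosses 0, and Cyp7a1 alone straddles a dotted line, between 0.49 and 0.64.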

How the data were processed

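Liver RNA pools of the DEF/FOS and DEF/CT groups were each measured on 1 Affymetrix array. The deposited intensities are linear MAS5 signals, and MAS5 and GCOS are named without version in the submitters' processing notes. The trimmed mean of the deposited intensities was 100.00 in both arrays. No detection calls or background values were used here.

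Gene names came from the platform annotation, with 34945 probe sets naming 1 gene, 932 naming several and 9160 unnamed. Probe sets naming several genes were not used. Identifiers were checked against RefSeq names of GRCm38.p6, and 0 symbols changed. The log2 ratio of the deposited intensities was centred on its median above the floor, which was -0.01. With 1 array per group no model was fitted. Python 3.11.15, numpy 2.4.6, pandas 2.3.3 and statsmodels 0.14.6 were used, and the procedure was tested on simulated data.

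The 10 genes and all lists were chosen with earlier results of these data known. Named genes were the 10 genes, per list up to 4 genes farthest from 0, and 15 genes fixed by symbol. With 2 arrays, likeness of pattern between genes could not be measured. The number of arrays limits the precision. The 9 alternatives are in the closing section.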

Additional observations from a re-analysis of the deposited data

How the results depend on the processing

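The 9 alternatives were no centring, quantile normalization, a loess correction on signal, an offset of 32, the median over probe sets, leaving out probe sets marked as matching more than 1 transcript, no floor, a floor at the 75th percentile, and signals raised to the floor where they lay under it. Each of the 10 genes kept its direction and moved by less than the SD between probe sets in every alternative that could be computed. Several of the alternatives could hardly have changed this, as given above. Hsd3b7 has no value without probe sets marked as matching more than 1 transcript. The count of the 10 genes at least 1.5-fold lower was 2 throughout. The count at least 1.5-fold higher was 0, but 1 without the marked probe sets and 1 with no floor, where Cyp7a1 passed the line because the centre moved. Over all genes, a difference of at least 1.5-fold was counted 754 times upwards and 873 times downwards. These counts were 278 and 258 with the offset, 2856 and 3546 with no floor, and 244 and 212 with the higher floor. The median of side chain genes and that of FXR genes each changed sign in 2 alternatives and that of LXR genes in 4. That of adaptors and kinases changed sign in 1, to -0.009 with the higher floor. Fgfr2 and Gab1 were the genes at 1.5-fold lower in their lists, and with the offset, with the median over probe sets or without the marked probe sets both lists had 0, as the list of Gab1 also had with no floor. The counts of the feedback and clock lists also moved, as given with them. The acidic route had 2 genes at 1.5-fold higher without the marked probe sets or with no floor. With no floor the FXR list had 2 higher, and the FGF ligands had 2 higher and 2 lower. The side chain list had 2 genes at 1.5-fold higher, 0 with the offset and 1 with no centring, quantile normalization, the median over probe sets or the higher floor. No paired analysis was possible because each group is 1 array. Below the floor signals have no order.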

Other observations

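Markers of other liver cells were compared in the same way. Of 10 Kupffer cell genes, 8 were higher in DEF/FOS, where 49.9% of all genes above the floor were higher. Their median was 0.23, with summed signals of 4223 in DEF/FOS and 3557 in DEF/CT. Marco, a scavenger receptor, was 2.14-fold higher at 131 against 61.6, C1qa 1.43-fold, Vsig4 1.29-fold and Clec4f 1.19-fold higher. The lower genes were Cd68, at -0.04, and C1qb, at -0.03 with 3 negative probe sets. Stellate and endothelial genes had a median of -0.06 over 9 genes, of which 4 were higher in DEF/FOS and 5 lower. Lrat, which stores retinol as esters, was 1.26-fold lower, Reln 1.23-fold lower and Kdr 1.17-fold lower, while Pecam1 was 1.19-fold higher. Neutrophil genes summed to 345 in DEF/FOS and 164 in DEF/CT, and of the 4 above the floor 3 were higher, with a median of 0.88. S100a8 read 147 and 33.8 and S100a9 110 and 35.1, so they were 4.38-fold and 3.16-fold higher, and most of the gap between the sums lies in these genes. Ngp differed by 0.10 and Elane by -0.30. Mpo read 2.83 in DEF/FOS and 21.8 in DEF/CT, and Cxcr2 29.6 and 3.88. Both genes lay below the floor on average, so no difference is given for them. Camp and Ltf lay below the floor in both pools. Genes of bile duct and gallbladder epithelium summed to 636 and 616, mostly from Aqp1 at 489 and 494. Of the 4 above the floor 3 were higher in DEF/FOS and 1 reached 1.5-fold on the measured signals, with a median of 0.35. Krt19, the latter gene, read 26.1 and 17.2, the second of which is under the floor, so it was at least 1.36-fold higher. Epcam differed by 0.19, Sox9 was 1.42-fold higher at 41.3 against 29.4, and Cftr, Cldn4, Muc1 and Tff2 lay below the floor in both pools.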
